A study of Mus musculus with 8 samples.

Results

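Igf2, H19, Kcnq1ot1, Cdkn1c, Phlda2, Slc22a18 and Ascl2 are 7 imprinted genes of 2 neighbouring domains on mouse chromosome 7, chosen by name among 32780 genes. They were measured in total RNA of TC1 cells, a mouse embryonic stem cell line labelled wild-type. The groups were undifferentiated cells at day 0 and cells after 10 days of differentiation, with 4 libraries each and no other treatment. The labels name no lineage for day 10 and do not tell whether the 4 libraries of either day are separate cultures. The p-values therefore measure the spread among these libraries alone, and that spread may be technical. The labels give neither batch nor date, so day and any batch along with it cannot be told apart.

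Imprinted genes are expressed mainly from the chromosome inherited from a given parent, and these domains are a textbook case. In the first domain a control region that is methylated on the paternal chromosome binds the insulator protein CTCF on the maternal chromosome. H19 is expressed from the maternal and Igf2 from the paternal copy, with enhancers that both genes share. In the second domain the paternal promoter of the long non-coding RNA Kcnq1ot1 lies in an intron of Kcnq1, and its transcription silences neighbours on that chromosome, Cdkn1c, Phlda2 and Slc22a18 among them. Ascl2, imprinted in the placenta, lies between the control regions of both domains. The parental origin of the RNA was not measured here.

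The sequences behind the Igf2 and Kcnq1ot1 results below are the stretches just upstream of their starts, taken from RefSeq (GRCm38.p6, minus strand, 5′ to 3′). Igf2 is shown at 3 of its starts because its transcripts were counted apart by start, and none of the 4 stretches overlaps an exon of its gene in GENCODE M21. Capitals mark a CCAAT box (CCAAT or its complement ATTGG) or a GC box (GGGCGG or CCGCCC), searched on both strands.
Igf2 proximal start (Igf2-201), chr7:142657497-142657746: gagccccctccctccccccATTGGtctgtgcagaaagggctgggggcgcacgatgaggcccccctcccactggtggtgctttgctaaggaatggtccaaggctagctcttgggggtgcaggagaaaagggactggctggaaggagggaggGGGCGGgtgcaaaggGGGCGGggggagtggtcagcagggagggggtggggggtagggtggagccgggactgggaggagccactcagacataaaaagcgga
Igf2-204 start, chr7:142661306-142661521: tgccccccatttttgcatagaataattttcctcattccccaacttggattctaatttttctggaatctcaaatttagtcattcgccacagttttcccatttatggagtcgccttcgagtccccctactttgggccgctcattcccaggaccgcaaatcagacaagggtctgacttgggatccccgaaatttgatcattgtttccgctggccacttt
Igf2-203 start, chr7:142666817-142667066: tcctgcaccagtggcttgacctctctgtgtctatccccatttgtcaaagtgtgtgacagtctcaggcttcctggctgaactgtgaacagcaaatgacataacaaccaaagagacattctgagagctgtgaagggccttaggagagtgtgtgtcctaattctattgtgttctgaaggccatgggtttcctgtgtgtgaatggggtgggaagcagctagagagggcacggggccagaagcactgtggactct
Kcnq1ot1 start, chr7:143296550-143296797: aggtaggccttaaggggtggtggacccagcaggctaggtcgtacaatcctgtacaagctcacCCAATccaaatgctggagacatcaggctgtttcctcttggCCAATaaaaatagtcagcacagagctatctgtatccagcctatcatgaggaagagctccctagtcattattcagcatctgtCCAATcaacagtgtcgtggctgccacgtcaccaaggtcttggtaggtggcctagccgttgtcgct
The proximal Igf2 stretch held 1 CCAAT box and 2 GC boxes, and the stretches at Igf2-204 and Igf2-203 held neither. The Kcnq1ot1 stretch held 3 CCAAT boxes and no GC box. Over 32851 RefSeq promoters, windows of 250 bases held at least 1 CCAAT box in 33.8% and at least 3 in 2.79%, and at least 1 GC box in 32.7% and at least 2 in 16.2%. None of the 4 stretches held TATAAA or TTTATA, which 12.4% of promoters hold.

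H19 RNA is also the precursor of miR-675, whose hairpin lies in its first exon. The mature forms, from the minus strand of the same build, are printed with the seed, bases 2 to 8, in capitals, because the share of H19 RNA that holds the hairpin is given below.
miR-675-5p, chr7:142577112-142577133: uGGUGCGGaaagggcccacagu
miR-675-3p, chr7:142577078-142577099: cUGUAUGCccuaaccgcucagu
The 2 seeds differ. Neither mature form was counted in these libraries.

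Libraries held 11242568 to 15808039 estimated counts at day 0 and 13525255 to 17843651 at day 10. Levels are given in CPM, the usual depth-scaled counts (here with TMM factors), for comparisons of a gene between days, and in TPM, which is corrected for length, for comparisons between genes. The summed TPM of 8 pluripotent stem cell markers lay between 4701 and 5297 at day 0 and between 127 and 194 at day 10. In bulk RNA fewer cells of a type and less RNA per cell cannot be told apart, here and below. Of the 15097 genes tested with edgeR's quasi-likelihood test, 82.1% passed an adjusted p of 0.05, 42.7% higher and 39.4% lower at day 10, with a median log2 change of 0.06. Of the 7 imprinted genes 5 had enough counts to be tested. All 5 passed, Igf2, H19, Kcnq1ot1 and Cdkn1c higher and Phlda2 lower, and with this background a pass by itself sets no gene apart. Slc22a18 and Ascl2 had too few counts. Together the 7 genes made up 0.0163 to 0.0173% of a library's TPM at day 0 and 0.873 to 1.14% at day 10.

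**Figure D1:**
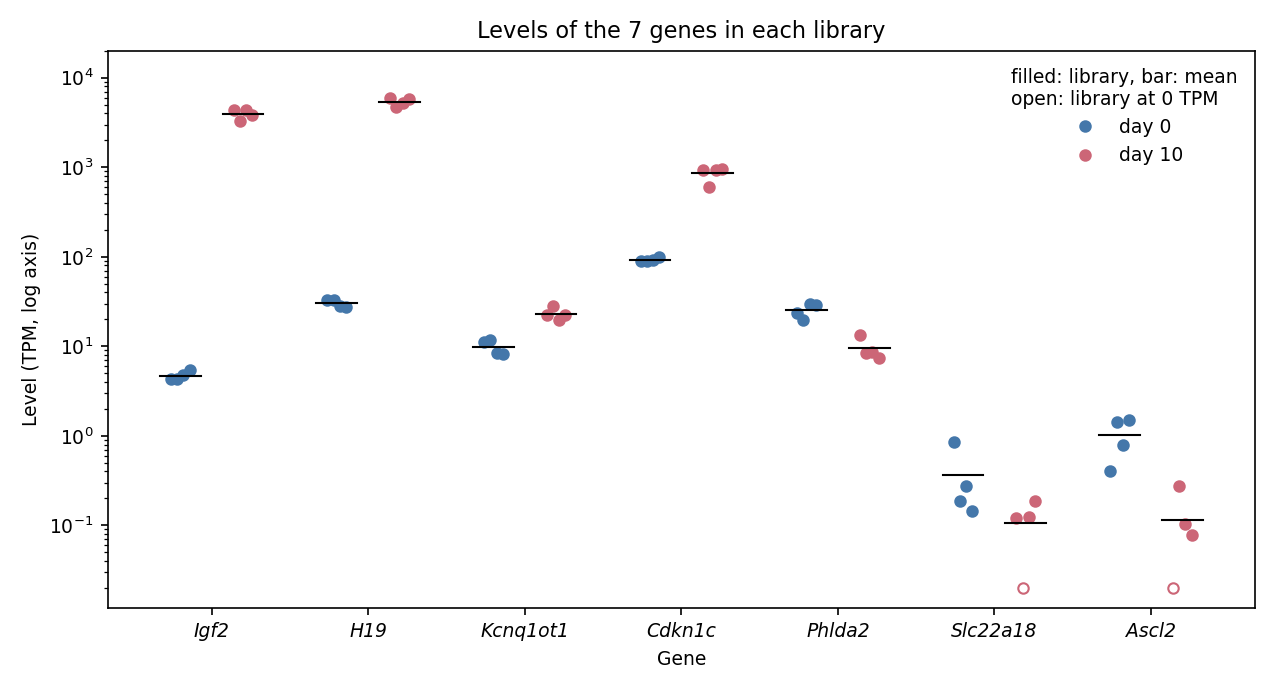
Level of the 7 genes in TPM on a log axis, with day 0 libraries in blue and day 10 libraries in red, means as bars, and libraries at 0 as open symbols near the lower edge. Igf2 and H19 moved from 4.72 and 30.5 TPM on average to 3952 and 5382 TPM, while Phlda2 and Ascl2 were lower at day 10.

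Igf2, the fetal growth factor that signals through the IGF1 and insulin receptors, was low at day 0 but detected in every library. It measured 9.59, 8.22, 9.35 and 11.1 CPM in day 0 libraries 1 to 4 and 6804, 4611, 6544 and 5861 CPM in day 10 libraries 1 to 4. The lowest day 10 library was library 2, and the days did not overlap. Mean levels were 9.57 ± 1.20 and 5955 ± 980 CPM (SD, n = 4), a log2 change of 9.28 ± 0.17 (SE) with an edgeR adjusted p of 4.13e-13. Only 105 of the 15097 genes tested had a higher log2 change. Per length, Igf2 went from rank 10141 of 32780 genes to rank 15 by mean TPM.

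H19, a long non-coding RNA abundant in embryonic tissues, followed with a higher level at day 0. Its values were 30.9, 25.2, 28.3 and 31.1 CPM at day 0 and 5430, 3889, 4609 and 4256 CPM at day 10. Again library 2 was the lowest at each day, and the days did not overlap. The means were 28.9 ± 2.75 and 4546 ± 659 CPM (SD, n = 4), and the log2 change was 7.30 ± 0.13 (SE) with an edgeR adjusted p of 6.52e-14. H19 rose from rank 4951 to rank 7 by mean TPM, above Igf2 in every library of both days.

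The excess of H19 over Igf2 narrowed. The log2 ratio of Igf2 to H19 TPM was -2.96, -2.93, -2.55 and -2.33 in day 0 libraries 1 to 4 and -0.43, -0.51, -0.28 and -0.58 in day 10 libraries 1 to 4. Igf2 stood at 0.155 of the H19 level at day 0 and at 0.732 at day 10 (geometric means), so the ratio was 4.74-fold higher at day 10. Mean log2 ratios were -2.69 ± 0.31 and -0.45 ± 0.13 (SD, n = 4), a difference of 2.24 with no overlap of the days. The two-sided exact permutation p was 0.0286, the smallest that 4 against 4 libraries allow, and it was also 0.0286 adjusted over the 2 ratios tested. The ratio rests on 104 to 170 Igf2 counts per day 0 library.

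**Figure D2:**
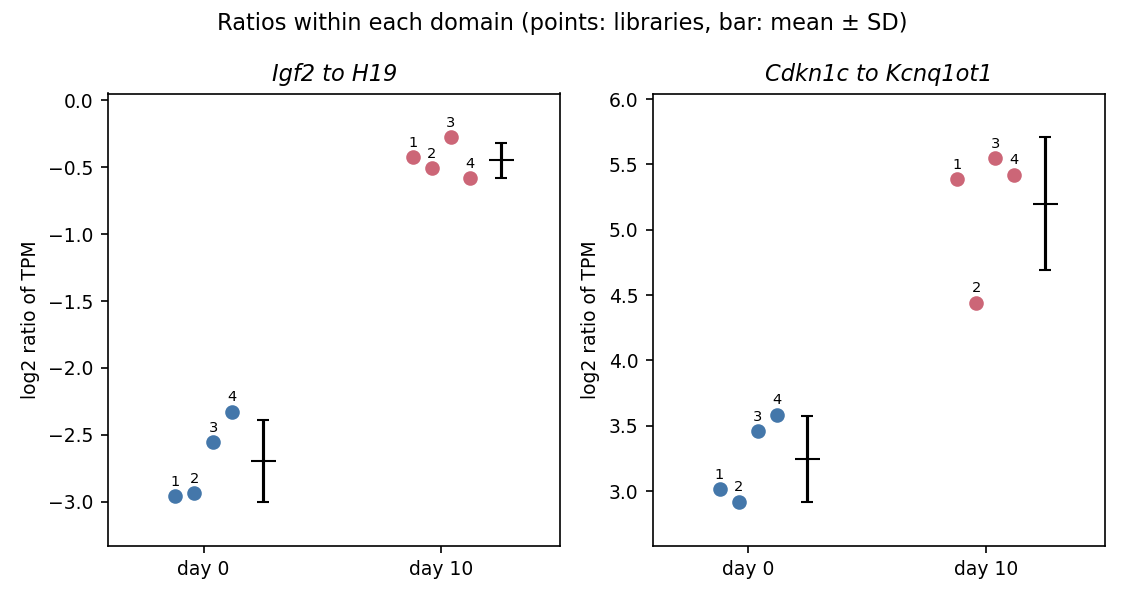
The log2 ratio of TPM in each library, for Igf2 to H19 on the left and Cdkn1c to Kcnq1ot1 on the right, with library numbers above the points and the mean ± SD beside them. No day 0 library reaches a day 10 library in either panel, and day 10 library 2 lies below the other day 10 libraries on the right, at 4.44.

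Cdkn1c encodes p57Kip2, an inhibitor of G1 cyclin-dependent kinases. It was the most abundant of the 7 genes at day 0 per length, at 92.3 ± 4.42 TPM (SD, n = 4), and reached 859 ± 168 TPM at day 10, moving from rank 1970 to rank 112. At day 0 a mean of 49.1% of this TPM, on 17.6% of the counts, came from Cdkn1c-204, a model of 500 bases. The longer Cdkn1c-201 alone was at 32.1 TPM, beside 30.5 TPM for H19. In CPM the values of Cdkn1c were 53.8, 46.0, 55.2 and 54.5 at day 0 and 365, 227, 362 and 386 at day 10. Library 2 of each day was low, and every day 10 library was above every day 0 library. The log2 change in CPM was 2.68 ± 0.16 (SE) with an edgeR adjusted p of 1.49e-07, and it was 2.82 without day 10 library 2. The antisense gene Gm44732 overlaps Cdkn1c, with 1 count at day 0 and 13 at day 10, and without strand its reads cannot be told apart from those of Cdkn1c.

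Kcnq1ot1 is the silencing RNA of the second domain. It was already present at day 0, with 660, 706, 534 and 518 CPM in libraries 1 to 4, and measured 1042, 1231, 907 and 1033 CPM at day 10. Day 10 library 2, the lowest for Igf2, H19 and Cdkn1c, was the highest for Kcnq1ot1. The log2 change in CPM was 0.80 ± 0.12 (SE), with an edgeR adjusted p of 4.85e-05, and the mean TPM rose from 9.86 ± 1.84 to 23.2 ± 3.46 (SD, n = 4). With a length trend over all genes removed, the change turned to -0.68 (adjusted p 1.17e-05), while the other 4 tested genes kept their direction. That correction has little to rest on at 93092 bases, since only 6 tested genes exceed 20000 bases and 2 are longer than Kcnq1ot1.

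Because of its length, Kcnq1ot1 gave 82.9 to 89.1% of the counts of all 7 genes at day 0, and 7.30 to 12.4% at day 10. Igf2 and H19 together gave 4.21 to 6.76% at day 0 and 85.3 to 89.8% at day 10. Kcnq1, the potassium channel gene that Kcnq1ot1 overlaps in antisense, had 9 counts over the day 0 libraries and 52 over the day 10 libraries. No source used here states that strand was used, so unspliced Kcnq1 RNA and Kcnq1ot1 cannot be told apart.

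Cdkn1c exceeded Kcnq1ot1 per length in every library. The log2 ratio of their TPM was 3.02, 2.92, 3.46 and 3.59 at day 0 and 5.39, 4.44, 5.55 and 5.42 at day 10. Means of 3.24 ± 0.33 and 5.20 ± 0.51 (SD, n = 4) differed by 1.95, a 3.87-fold higher ratio at day 10. The two-sided exact permutation p was 0.0286, and it was also 0.0286 adjusted over the 2 ratios. A mean of 49.1% of Cdkn1c TPM at day 0 and 61.5% at day 10 came from the 500-base Cdkn1c-204. Cdkn1c-201 alone rose from 32.1 to 222 TPM, beside 9.86 to 23.2 TPM for Kcnq1ot1.

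Phlda2, a pleckstrin-homology protein that restrains placental growth, was the tested gene that fell. It measured 8.66, 6.06, 9.18 and 8.71 CPM at day 0 and 2.43, 1.73, 1.61 and 1.40 CPM at day 10, with no overlap. The mean fell from 8.15 ± 1.41 to 1.79 ± 0.45 CPM (SD, n = 4), a log2 change of -2.19 ± 0.23 (SE) with an edgeR adjusted p of 5.24e-07. Its mean TPM went from 25.6 to 9.52, and on log2(TPM + 1) the change was -1.35, smaller than on counts by over 1.5 times. Phlda2 rests on 423 counts over the day 0 libraries and 108 over the day 10 libraries.

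Ascl2, a helix-loop-helix transcription factor needed for the spongiotrophoblast, had 4, 18, 9 and 22 counts at day 0 and 0, 3, 1 and 1 at day 10. Scaled to the totals, the 5 counts of day 10 were 0.0846 of the 53 of day 0, with a 95% exact interval of 0.0264 to 0.210. Slc22a18, an organic cation transporter, had 7, 2, 3 and 2 counts at day 0 and 1, 0, 1 and 2 at day 10, a ratio of 0.256 with an interval of 0.0614 to 0.816. Its TPM values overlapped between the days. These intervals cover counting error only, since reads are not independent molecules, and neither gene passed the filter for the count test.

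In order of mean TPM at day 0 the genes stood as Cdkn1c, H19, Phlda2, Kcnq1ot1, Igf2, Ascl2 and Slc22a18. Neighbours in that order overlapped between H19 (27.4 to 33.2 TPM) and Phlda2 (19.9 to 30.0 TPM), and between Ascl2 (0.403 to 1.499 TPM) and Slc22a18 (0.144 to 0.846 TPM). At day 10 the order was H19, Igf2, Cdkn1c, Kcnq1ot1, Phlda2, Ascl2 and Slc22a18, where only Ascl2 and Slc22a18 overlapped. The coefficient of variation of CPM among the libraries of a day was 8.21 to 17.3% at day 0 and 12.7 to 24.9% at day 10 over the 5 tested genes, beside a common biological coefficient of variation of 12.5% over all genes.

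**Figure D3:**
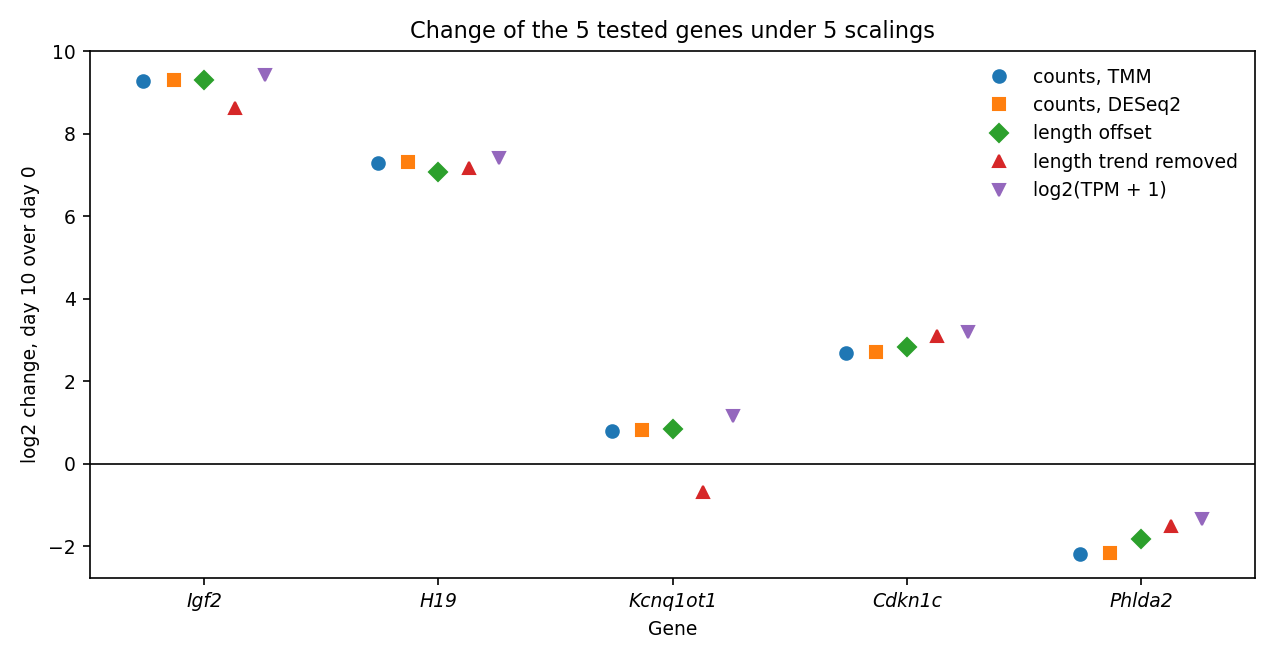
The log2 change of the 5 tested genes on counts with TMM scaling, with DESeq2, with average transcript length as an offset, with a length trend removed, and on log2(TPM + 1). Every gene keeps its side of 0 except Kcnq1ot1, which is at -0.68 with the length trend removed and at 1.16 on log2(TPM + 1).

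Transcripts were examined next, 25 of them with at least 10 counts over the 8 libraries. Of 17 tested for a change in level, 15 were higher and 1 was lower at day 10, where 50.6% of all 41067 transcripts tested passed, 26.8% higher and 23.8% lower. The lower transcript was Phlda2-201, and Cdkn1c-202 did not pass (edgeR adjusted p 0.0755), at a log2 change of 3.84 ± 1.59 (SE). It passed without day 0 library 3 (12.5, adjusted p 0.00397) and with the replicate block (6.38, adjusted p 0.0468). All of its 160.3 day 0 counts lay in library 3, so the 12.5 is fitted against a day 0 without a count. Among the higher ones the call of H19-206 (log2 change 2.47 ± 0.80, SE, adjusted p 0.0313) was lost without day 0 library 1, 3 or 4 or day 10 library 4, where the change was 2.51, 2.35, 2.14 and 1.43. It was also lost without a low-count filter (2.51, adjusted p 0.0597). Of 15 tested for usage, the change relative to the other transcripts of the gene, only H19-206 passed, where 21.4% of 35947 transcripts tested did (limma diffSplice, Benjamini-Hochberg adjusted). The deposited tables hold a single estimate per transcript, so the uncertainty of dividing reads among transcripts is not in these p-values.

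**Figure D4:**
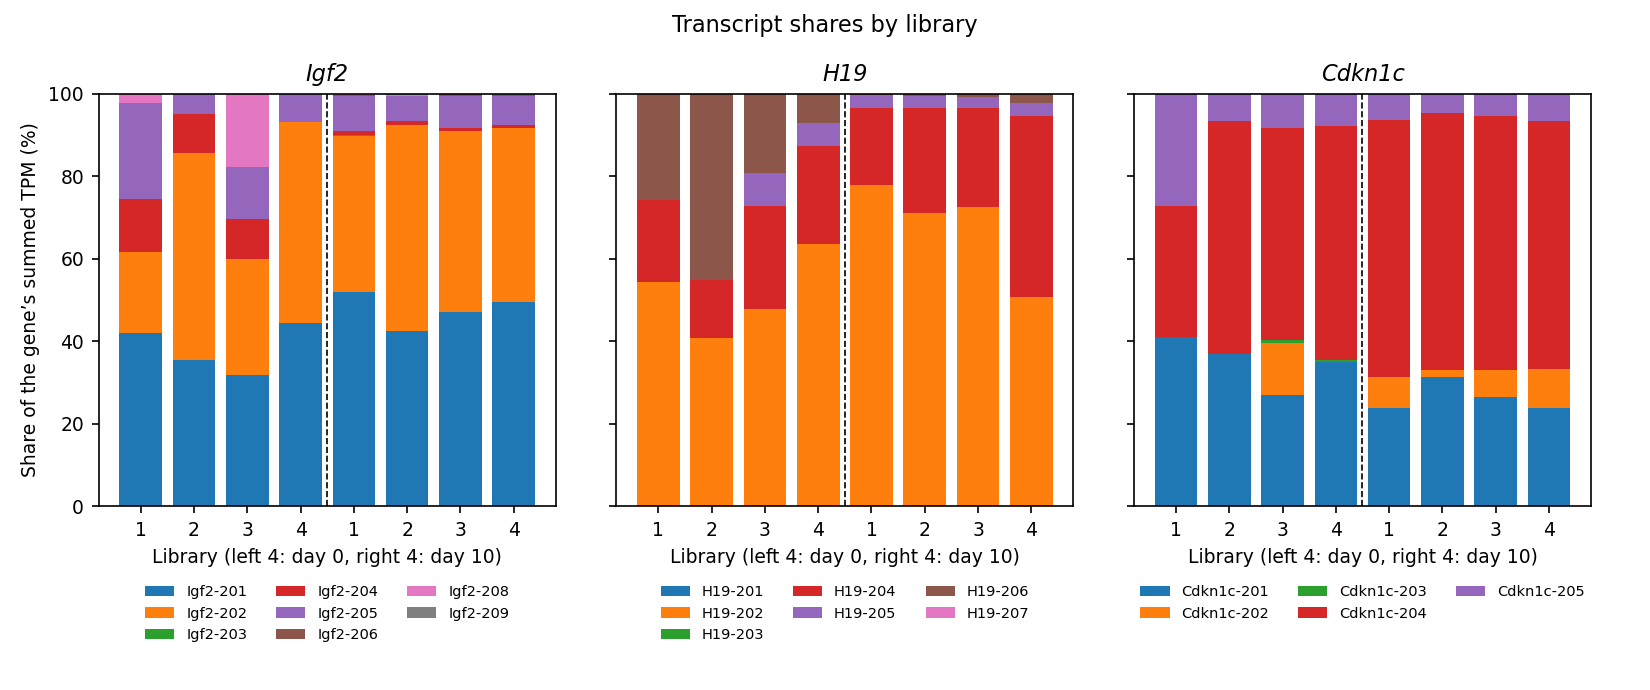
Share of each transcript in the summed TPM of Igf2, H19 and Cdkn1c, per library, with day 0 left and day 10 right of the dashed line. H19-206 shrinks from 7.11 to 45.1% at day 0 to at most 2.41% at day 10, and day 0 libraries differ more among themselves than day 10 libraries for Igf2.

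Igf2 has several starts, whose use is known to differ between fetal tissues and placenta. Igf2-201 and Igf2-202 begin within 30 bases of each other at the proximal start, and Igf2-205, Igf2-204 and Igf2-203 begin 1993, 3809 and 9320 bases upstream. The proximal start gave 61.7, 85.5, 59.8 and 93.0% of Igf2 TPM in day 0 libraries 1 to 4 and 89.7, 92.3, 90.9 and 91.6% at day 10. The day 0 values spread widely around the day 10 values and the days overlapped. Igf2-205 gave 4.92 to 23.2% at day 0 and 6.07 to 8.37% at day 10.

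Igf2-204, whose upstream stretch is printed above, gave 12.8, 9.53, 9.75 and 0% at day 0 and 1.06, 0.906, 0.763 and 0.738% at day 10. Day 0 library 4 thus stood below all day 10 libraries and the other day 0 libraries above them. Its usage change was -2.07 ± 2.79 log2 (SE), with a diffSplice adjusted p of 0.659. Igf2-203 had no count at day 0 and 45.6 counts at day 10. That is 0.0126% of Igf2 counts, under the 0.596% that a count of 0 among 503.1 Igf2 counts allows, so a difference in share was not detectable at this depth. The same limit holds for Igf2-206 and Igf2-209, which also had no count at day 0.

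The division among Igf2 transcripts rests on little distinct sequence. Only 0.90% of the 31-base words of Igf2-201 occur in no other annotated transcript, and 97.0% of them recur in a transcript of the overlapping gene Gm49394. Gm49394 had no counts at day 0 and 222 to 383 at day 10, or 0.247 to 0.466% of the Igf2 counts.

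H19-202 was the main H19 transcript, with 54.4, 40.8, 47.7 and 63.5% of H19 TPM at day 0 and 77.7, 70.9, 72.4 and 50.5% at day 10. Day 10 library 4 lay within the day 0 range, and in that library H19-204 was high, at 43.9% against 18.6 to 25.5% in the other day 10 libraries. The usage change of H19-202 was 1.74 ± 0.91 log2 (SE, diffSplice adjusted p 0.181), and it passed without that library (2.10, adjusted p 0.0184). H19-206 gave 25.9, 45.1, 19.3 and 7.11% at day 0 and 0.344, 0.463, 0.722 and 2.41% at day 10, with no overlap. Its usage change was -5.08 ± 1.33 log2 (SE) with a diffSplice adjusted p of 0.00533. The call was lost without day 0 library 2 (-4.48, adjusted p 0.0743) and without a low-count filter (-4.81, adjusted p 0.495), and the direction turned with edgeR's diffSpliceDGE (0.41, adjusted p 0.575). H19-206 rests on 144.4 counts at day 0, and 3.69% of its 31-base words are its own.

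The miR-675 hairpin occurs in the M21 models of H19-202, H19-205 and H19-206. The first and second of these differ in length from the models quantified, with 2286 and 1521 bases in M21 and 2296 and 2285 bases in the deposited tables, so the assignment of the hairpin to them comes from M21 alone. These held 75.0 to 85.9% of H19 TPM at day 0 and 81.2, 74.2, 75.8 and 56.0% in day 10 libraries 1 to 4. Apart from day 10 library 4 the ranges overlapped. In TPM the hairpin-bearing transcripts summed to 20.9 to 28.5 at day 0 and 3217 to 4762 at day 10.

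Cdkn1c-204, a 500-base model with a retained intron, gave 31.6, 56.7, 51.2 and 56.7% of Cdkn1c TPM at day 0 and 62.1, 62.4, 61.4 and 60.1% at day 10. The days did not overlap, yet the usage change of 0.83 ± 0.67 log2 (SE) did not pass (diffSplice adjusted p 0.421). It passed without day 10 library 2 (0.89, adjusted p 0.0247), as did that of Cdkn1c-202 (6.13, adjusted p 0.0173). Day 0 library 1 stood far below the rest for Cdkn1c-204. In that library Cdkn1c-205 took 27.4%. Of the 31-base words of Cdkn1c-201, 71.6% occur in no other annotated gene and 4.28% in no other transcript. The coding Cdkn1c-201 gave 26.8 to 41.0% at day 0 and 23.7 to 31.4% at day 10, and its level rose by a log2 change of 2.34 ± 0.13 (SE, edgeR adjusted p 2.82e-06). Phlda2-201 gave 66.3 to 100% of Phlda2 TPM at day 0 and 40.6 to 61.8% at day 10, on 77.4 counts at day 10.

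Of 23 other genes listed for the 2 domains and their borders, 17 were tested. At day 10, 10 were higher, 6 were lower and Tssc4 did not pass (0.28 ± 0.15, SE, edgeR adjusted p 0.103). Tssc4 passed with the length trend removed (0.43, adjusted p 0.0128) and on log2 TPM (0.48 to 0.52, limma adjusted p 0.0163 to 0.0297). The median log2 change of the 17 was 1.30, beside 0.06 over all genes tested, of which 42.7% were higher and 39.4% lower. Tnni2, Tnnt3, Trpm5, Tnfrsf23, Tspan32, Igf2os and Lsp1 had only 2 to 30 counts each over the day 0 libraries. They passed the filter through day 10 and could hardly be called lower, so the filter partly sets the count of higher genes and the median. Igf2os, which runs antisense to Igf2, rose by 7.61 ± 0.22 (SE) to 76.4 ± 13.4 CPM (SD, n = 4), and without strand its reads cannot be told apart from those of Igf2. Beyond H19, the cytoskeletal gene Lsp1 rose by 6.47 and the lysosomal protease gene Ctsd by 1.30. The fast skeletal troponin genes Tnnt3 and Tnni2 went from 2 counts each to 201 and 99, ratios of 90.1 (95% exact interval 24.6 to 749) and 44.4 (11.97 to 372). Mrpl23, for a mitochondrial ribosomal protein, fell by 1.01. Ins2, the insulin gene next to Igf2, had no count in 8 libraries, which allows up to 0.0264 CPM.

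Around Kcnq1ot1, the tetraspanin genes Tspan32 and Cd81 rose by 2.58 and 1.18 log2, the oxysterol-binding gene Osbpl5 by 4.30 and the decoy receptor gene Tnfrsf23 by 3.14. The cation channel gene Trpm5 went from 7 counts, all in day 0 library 4, to 236 counts. Its fitted log2 change was 4.80 ± 0.66 (SE), and 8.77 without that library, which leaves day 0 without a count. Lower were the Tnfrsf23 paralogue Tnfrsf22 (-3.03), Cars, for cysteinyl-tRNA synthetase (-1.93), Nadsyn1, for NAD synthetase (-0.71), Dhcr7, for a cholesterol synthesis enzyme (-0.66) and the histone chaperone gene Nap1l4 (-0.29). On log2(TPM + 1), where the median of all genes was 0.42, Nap1l4 turned to 0.51, Nadsyn1 to 0.12 (adjusted p 0.597) and Dhcr7 no longer passed (-0.054). Phlda2 and Nap1l4, which lie side by side, were thus both lower on counts, and only Phlda2 was lower on both scales.

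**Figure D5:**
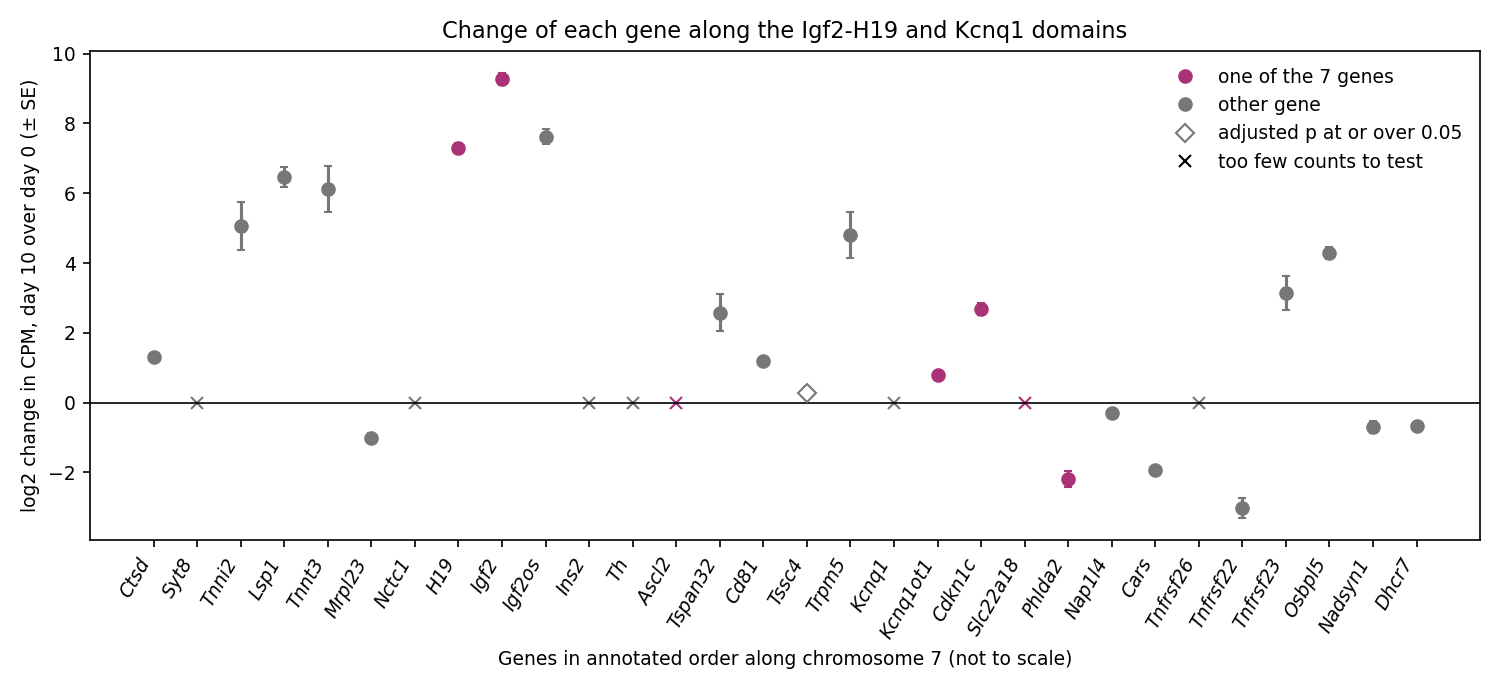
The log2 change in CPM with its SE for the 7 genes and the 23 listed neighbours in their annotated order on chromosome 7, not to scale, with crosses at 0 for genes with too few counts. Igf2 at 9.28, Igf2os at 7.61 and H19 at 7.30 lead, while Phlda2, Nap1l4, Cars and Tnfrsf22 stand below 0. Tnni2 and Tnnt3 are fitted from 2 counts at day 0.

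Factors that protect or read imprints mostly fell on counts. Of 18 tested, 14 were lower, 1 was higher and 3 did not pass, with a median of -0.999. Of all genes tested 39.4% were lower and 42.7% higher. Mean TPM did not fall for Ctcf (98.1 to 104), Ehmt2 (82.2 to 99.3) and Hnrnpk (2047 to 2111). It fell for the others of the 14. The imprint-protecting zinc finger gene Zfp57 had a log2 change of -2.25 ± 0.06 (SE). Trim28, for its corepressor, changed by -1.46 ± 0.06 and Uhrf1, for the partner of the maintenance methyltransferase, by -1.56 ± 0.08. Dnmt3l, for a cofactor of de novo methylation, went from 6378 counts to 2, a ratio of 0.000281 (95% exact interval 3.40e-05 to 0.00102). Zfp445, which also guards imprints, rose by 0.37 ± 0.07 on counts and was at -0.14 with the length trend removed.

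Genes listed as partners of IGF2 were mostly higher at day 10. Of 12 genes, 11 were higher and 1 was lower, with a median of 2.99, where 42.7% of all genes tested were higher and 39.4% lower. Pappa and Pappa2, with 14 and 2 counts at day 0, passed the filter through day 10 and could hardly be called lower. Igf2r, for the receptor that clears IGF2, rose by 3.48 ± 0.09 (SE), the adaptor genes Irs1 and Grb10 by 4.75 ± 0.09 and 3.02 ± 0.08, and Pappa, for a protease of IGF-binding proteins, by 8.69 ± 0.15. Igf2bp1, for an RNA-binding protein of Igf2 messenger RNA, fell by 1.21 ± 0.07. Among 9 G1 kinases and cyclins that p57Kip2 can bind, 2 were higher, 6 were lower and 1 did not pass, with a median of -0.74. The same shares over all genes apply. Cdk4, among the 6 lower on counts, had a mean of 297 TPM at day 0 and 330 TPM at day 10. Ccnd2 rose by 1.96 and Cdk6 by 0.55, the latter turning to -0.76 with the length trend removed. Lower were Ccne1 (-3.24), Ccna2 (-1.07), Ccne2 (-0.84) and Cdk2 (-0.74).

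Markers of several cell types moved with the day, and the highest marker is named for day 10. Of all genes tested 42.7% were higher and 39.4% lower. Markers with hardly any count at day 0, such as Afp with 4 and Lum with 1, passed the filter through day 10. They could hardly be called lower, so the counts of higher markers below are partly set by the filter. Of 8 trophoblast markers tested 5 were higher and 3 were lower, with a summed TPM of 31.8 to 37.1 at day 0 and 85.1 to 90.2 at day 10, Krt7 highest, and the placental markers Tpbpa and Prl3d1 without a count. Fibroblast markers were higher in 7 of 8, from 57.8 to 60.9 TPM at day 0 to 3122 to 5130 at day 10, Col3a1 highest. Visceral endoderm markers were higher in 8 of 11, from 98.5 to 109 TPM to 559 to 1678, Afp highest. All 9 cardiomyocyte markers tested were higher, from 27.5 to 32.5 TPM to 528 to 847, Actc1 highest. Among them Tnnt2, Myl2, Tnni1 and Myl7 had only 4 to 8 counts each over the day 0 libraries. Endothelial markers were higher in 6 of 6 and blood markers in 5 of 6, reaching 210 to 257 and 126 to 169 TPM, with Kdr and Hba-a1 highest. Parietal endoderm markers were split, 3 higher and 4 lower of 8, at 2231 to 3011 TPM and 3231 to 4920 TPM, Sparc highest. Of 3 skeletal muscle markers tested none was higher and 2 were lower, at 8.56 to 11.4 TPM and 2.65 to 4.09 TPM, with Acta1 highest at day 10 and Actn3 at day 0. Myod1 had 4 counts at day 0 and none at day 10.

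In day 10 library 2, where Igf2, H19 and Cdkn1c were lowest, the fibroblast sum was the lowest at 3122 TPM, against 4168 to 5130 in the others. The visceral endoderm sum there was the highest at 1678 TPM, against 559 to 1100. Other sums stood at an end there too. Parietal endoderm (4920 against 3231 to 4854 TPM) and pluripotent markers (194 against 127 to 161 TPM) were highest. Blood (126 against 135 to 169 TPM) and trophoblast markers (85.1 against 86.5 to 90.2 TPM) were lowest. Cardiomyocyte, skeletal muscle and endothelial sums lay within the range of the other day 10 libraries. The part of these cell types in the levels of Igf2, H19 and Cdkn1c was not tested. Without that library the log2 changes were 9.38 for Igf2, 7.36 for H19 and 0.72 for Kcnq1ot1.

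Genes with the profile nearest to Igf2, H19, Cdkn1c and Kcnq1ot1 were ranked over the 8 libraries by the root mean square difference of log2 CPM centred on each gene's mean, as a description. Nearest to Igf2 were Col1a1, Dnm3os and Cd93, at distances of 0.17, 0.19 and 0.25. Col1a1 encodes a chain of fibrillar collagen, and went from 3.23 to 2369 CPM. H19 was nearest to Ccn4, Serpina3n and Pcdh11x (0.10, 0.12 and 0.15). Cdkn1c was nearest to Tpm1, Pls3 and Mmp23 (0.13 each), of which Tpm1 encodes a tropomyosin and went from 141.5 to 833 CPM. Kcnq1ot1 was nearest to Slc4a8, Bcl11a and Agap1 (0.06 to 0.09). Cd93 and Serpina3n had no count at day 0, and Dnm3os and Pcdh11x had means of 0.24 and 0.21 CPM. The distances of all of these depend on the prior count of 2.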

How the data were processed

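Each library came as a table of 126126 transcripts. Per the file headers it holds estimated counts, which the authors did not scale, and TPM, which the authors' quantification corrects for effective length. Per the submitters' processing notes kallisto was used, its version given only as 1, and DESeq2 is named too. Their transcript reference and build: not given in the sources used here. Per the labels' protocols, the library kit takes total RNA and removes ribosomal RNA.

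Transcripts were joined to GENCODE M21 by identifier without version (117992, 93.6%), and unmatched ones, 1.15 to 1.23% of counts, were left out. Estimated counts and TPM were summed per gene, and the counts rounded. R 4.3.3 ran edgeR 4.0.16 (filterByExpr, TMM, robust quasi-likelihood fit) on genes and transcripts, and limma 3.58.1 diffSplice for usage, with Benjamini-Hochberg adjustment over the whole table and a threshold of 0.05. SE is the log2 change over the square root of F. log2 CPM used a prior count of 2. The 2 ratios had exact permutation tests over 70 assignments. Alternatives, up to 18 per gene, included DESeq2 1.42.0, other scalings, length corrections, TPM with pseudocounts of 1 and 0.1, a replicate block and leaving out each library. On simulated data the gene fit recovered 91.5% of 2-fold changes among 14886 genes, and the usage fit 70.5% among 35018 transcripts. There only 200 features were changed, and genes and transcripts alike had the common variation of 12.5%. No uncertainty of dividing reads among transcripts was added, so the usage figure does not carry over to the transcripts named here.

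All domain genes that passed the filter are named. From each other list the up to 4 called genes with the smallest p in its main direction, and up to 2 in the other, are named. The 7 genes, the lists and the rules were chosen with earlier results of these data known. RefSeq tables gave promoter sequences for Igf2, Kcnq1ot1, Ascl2, Slc22a18 and Phlda2, of which those of Igf2 and Kcnq1ot1 are shown. The genes nearest in profile to Phlda2 are not reported here.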

Additional observations from a re-analysis of the deposited data

Results flagged for a closer look

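In 7 of 50 groups of 4 libraries that were checked, 1 library stood apart from the other 3, where chance gives about 1 in 20. Day 10 library 2 was low for Cdkn1c, with 227 CPM against 362 to 386, and so was its log2 ratio of Cdkn1c to Kcnq1ot1, at 4.44 against 5.39 to 5.55. It was also low in the share of Igf2-206, with 0.165% of Igf2 TPM against 0.353 to 0.378%. Day 0 library 2 was low for Cdkn1c, with 46.0 CPM against 53.8 to 55.2, and for Phlda2, with 6.06 CPM against 8.66 to 9.18. Among Cdkn1c transcripts, Cdkn1c-202 took 12.6% of the gene's TPM in day 0 library 3 and under 0.001% in the other day 0 libraries. Cdkn1c-205 took 27.4% in day 0 library 1 against 6.56 to 8.44%. The Cdkn1c groups are not independent of each other, since they share libraries and the Cdkn1c count.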

How the results depend on the processing

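Igf2, H19, Cdkn1c and Phlda2 kept their direction and stayed past the threshold under all 18 alternatives, with log2 changes of 8.62 to 9.68, 7.07 to 7.46, 2.59 to 3.19 and -2.39 to -1.35. Kcnq1ot1 did so under 17, and was at -0.68 with the length trend removed. The genes called numbered 12399, of which 52.0% were higher, against 65.8% on log2(TPM + 1), where the median change was 0.42, and 40.5% with the length trend removed, where it was -0.28. The ratio of Igf2 to H19 differed by 2.16 to 2.37 and that of Cdkn1c to Kcnq1ot1 by 1.84 to 2.21 when each library was left out, with exact p 0.0571, the smallest that 3 against 4 libraries allow. With the replicate block the differences were 2.24 and 1.95 with p 0.125, the smallest that 4 pairs allow. On log2(TPM + 1) without a filter, Slc22a18 was at -0.28 (limma adjusted p 0.161) and Ascl2 at -0.83 (0.00533). Without a low-count filter, 13815 transcripts were called for usage, against 7705.

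Same-numbered libraries correlated at 0.0301 to 0.0494 in their deviations from the day means, and each library correlated best with its own number. Libraries of different numbers correlated at -0.0720 to 0.0278. Correlations this weak do not decide whether the libraries are paired by number. With the replicate block 12298 genes, 18048 transcripts and 8146 usage changes were called. Usage then passed for Igf2-201 (0.91), Igf2-204 (-3.03), Igf2-209 (-3.94) and H19-202 (1.66). Igf2-209 had no count at day 0 and 0.176 to 0.365% of Igf2 TPM at day 10. Its -3.94 is fitted against no count and does not show a fall in share. The change of Cdkn1c-202 passed (6.38) and H19-205 usage turned to -0.011. The change of H19-206 (2.02, edgeR adjusted p 0.173) and of Igf2-209 (7.29, edgeR adjusted p 0.0510) no longer passed.

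Among neighbours and listed genes, Nap1l4 turned to 0.11 with the length offset. It turned to 0.51 on log2(TPM + 1), filtered or not, and to 0.51 with a pseudocount of 0.1. Nadsyn1 turned to 0.12 on log2(TPM + 1), filtered or not, and to 0.13 with a pseudocount of 0.1. With the length trend removed Zfp445 was at -0.14 and Cdk6 at -0.76, and with the length offset Cdk6 was at -0.10. Usage signs turned in diffSpliceDGE for Igf2-201 (-0.87), Igf2-202 (-0.049), Igf2-206 (0.82), Igf2-209 (0.63), H19-205 (-0.31), H19-206 (0.41), Cdkn1c-201 (0.15), Cdkn1c-202 (-0.85), Cdkn1c-204 (-0.0081) and Cdkn1c-205 (0.094). Igf2-202 ranged from -0.036 to 1.01 with each library left out, the lowest without day 0 library 1, and Igf2-205 at 0.84 without a filter. The cause of these turns was not tested. Igf2-206 and Igf2-209 had no count at day 0, so their usage values are fitted against no count. Each named neighbour or listed gene was refitted under 18 alternatives, which share most of the data. Of these 594 pairs of gene and alternative, 573 kept the direction and side of the threshold. Depth limits the day 0 transcript shares of Igf2 and Phlda2, at 104 to 170 and 87 to 133 counts per library.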
